A study of Mus musculus with 4 samples.

Results

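Type 1 alveolar cell genes were followed across mouse lungs of 2 genotypes. The set was given as 10 gene symbols, and every probe set that the platform annotation assigns to exactly 1 of those symbols was taken. All 10 genes were represented, by 19 of the 45037 probe sets that are not array controls, and all 19 passed the filter on low values described with the processing. The measurements came from 4 single-colour Affymetrix arrays hybridised with total RNA of whole lung. Of these, 2 arrays held lungs of wild type mice and 2 held lungs of mice with a floxed allele of IKKα (IKKa floxed), a kinase of the complex that activates NF-κB. The labels give the strain of all mice as B6/J, and all of them, wild type included, received an adenovirus carrying Cre recombinase into the trachea, with lungs taken 4 months later. The groups therefore differ in whether Cre, which cuts out DNA flanked by loxP sites, had a floxed gene to act on. Cre delivered in this way reaches the cells that the virus infects, and the labels name no promoter that would limit it to a cell type, nor do they give the animals' age. Nothing in the labels ties an array to an animal of its own. The p-values therefore cover the spread among these 4 arrays and no more, and part or all of that spread may be technical. The transcript of the targeted gene is not analysed here.

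Type 1 alveolar cells are thin, flat epithelial cells that cover most of the gas exchange surface and share a basement membrane with the capillaries. Type 2 cells make surfactant and can give rise to type 1 cells, a step known to depend on the transcription factor NKX2-1 and on YAP and TAZ, which act through TEAD factors. The genes followed here serve the membrane, the cytoskeleton and signalling of type 1 cells. None of them is confined to that cell in the body. Podoplanin, for example, is also made by lymphatic endothelium, mesothelium and some fibroblasts, and Hopx by cardiac muscle. In bulk lung RNA, fewer cells of a type and less RNA per cell cannot be told apart.

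The arrays differed in more than genotype. The wild type arrays carried the male pattern and the floxed arrays the female pattern, with the X-inactivation transcript Xist at 31.8 and 22.9 in wild type lungs and 4246 and 4629 in floxed ones, so genotype and sex cannot be told apart. None of the 10 genes lies on the X or Y chromosome in the RefSeq table. The 3′ to 5′ ratio of control probe sets is a measure of RNA integrity. For Gapdh it ran from 1.10 to 1.18 for the wild type arrays and from 1.44 to 1.68 for the floxed arrays. For actin it was 2.65 and 2.46 for the wild type arrays against 2.67 and 2.77 for the floxed arrays. Heart muscle genes, which reach a lung sample with tissue of the heart or the pulmonary veins, read lower in floxed lungs, where the summed intensity of 10 such genes was 649 and 509 against 4847 and 7130 in wild type lungs. Of the floxed sums, 371 and 269 came from Actc1, a cardiac actin gene. All of these move with the group, the actin ratio only barely, and their part in the results below was not tested.

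The promoters of the genes differ widely in base composition. The 250 bases before a transcript start were taken from RefSeq (GRCm38.p6), which gave 10 windows for 8 of the 10 genes. They are shown for Ager, Hopx, Pdpn and Emp2, the genes whose main probe sets separated the groups, and for Aqp5, which had the highest GC content. Capitals mark the GC box GGGCGG on either strand, a word bound by Sp1-type factors.
Ager, chr17:34597600-34597849, plus strand: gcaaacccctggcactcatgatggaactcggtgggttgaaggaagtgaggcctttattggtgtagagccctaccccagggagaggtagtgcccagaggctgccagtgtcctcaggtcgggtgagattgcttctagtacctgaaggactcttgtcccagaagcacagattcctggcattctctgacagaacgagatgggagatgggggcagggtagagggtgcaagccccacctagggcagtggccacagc
Hopx, first start, chr5:77115124-77115373, minus strand: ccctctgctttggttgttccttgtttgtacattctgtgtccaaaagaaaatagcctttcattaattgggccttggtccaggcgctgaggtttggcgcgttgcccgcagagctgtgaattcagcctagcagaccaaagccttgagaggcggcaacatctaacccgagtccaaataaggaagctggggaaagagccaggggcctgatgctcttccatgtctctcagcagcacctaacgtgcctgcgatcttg
Hopx, second start, chr5:77095268-77095517, minus strand: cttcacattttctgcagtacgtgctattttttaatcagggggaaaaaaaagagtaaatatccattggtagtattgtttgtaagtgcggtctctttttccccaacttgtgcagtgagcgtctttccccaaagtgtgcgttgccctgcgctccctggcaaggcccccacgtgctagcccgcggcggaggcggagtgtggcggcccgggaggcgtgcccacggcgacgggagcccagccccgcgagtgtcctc
Pdpn, chr4:143299565-143299814, minus strand: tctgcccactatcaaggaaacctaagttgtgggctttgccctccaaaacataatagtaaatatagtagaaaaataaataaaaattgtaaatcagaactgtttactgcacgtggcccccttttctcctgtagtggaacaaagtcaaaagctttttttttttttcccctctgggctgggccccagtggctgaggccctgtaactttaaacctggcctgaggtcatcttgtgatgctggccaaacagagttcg
Emp2, chr16:10313969-10314218, minus strand: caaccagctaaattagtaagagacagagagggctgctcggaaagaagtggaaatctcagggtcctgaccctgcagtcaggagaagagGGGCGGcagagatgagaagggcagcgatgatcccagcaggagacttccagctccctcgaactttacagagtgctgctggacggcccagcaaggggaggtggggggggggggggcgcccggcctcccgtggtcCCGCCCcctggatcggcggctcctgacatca
Aqp5, chr15:99590778-99591027, plus strand: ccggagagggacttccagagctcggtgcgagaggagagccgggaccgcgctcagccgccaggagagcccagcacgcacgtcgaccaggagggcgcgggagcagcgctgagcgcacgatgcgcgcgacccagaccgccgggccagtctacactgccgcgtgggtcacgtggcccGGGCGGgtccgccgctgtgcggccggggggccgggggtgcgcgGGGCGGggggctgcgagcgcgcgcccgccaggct
The GC content ran from 43.2% for Pdpn to 78.4% for Aqp5, with a median of 52.4% over all 32851 windows of the table. A GC box stood in 5 of the 10 windows (1 each of Aqp5, Clic5, Akap5, Emp2 and Igfbp2) and in 32.7% of all windows. The windows of Ager, Hopx and Pdpn held none. None of the 10 windows held the TEAD word GGAATG, the NKX2-1 word TNAAGTG or the NF-κB motif on either strand, which occur in 12.6%, 10.1% and 1.41% of all windows. The word TGANTCA, bound by AP-1 factors, stood in 1 window, the second of Igfbp2, against 6.75% of all windows, and the TATA word TATAAA in none, against 12.4%. The GC box, AP-1 and TATA words were chosen after the sequences were seen. A missing word says only that these letters are not in the window.

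None of the 10 genes passed the test between genotypes. Of all 12735 genes tested, 1.73% passed (limma, Benjamini-Hochberg adjusted p under 0.05 over all genes), 0.997% as higher and 0.730% as lower in floxed lungs. At an unadjusted p under 0.05 there was 1 of the 10 genes, Pdpn, against 14.3% of all genes. Pdpn lay just outside the threshold, with both floxed arrays below both wild type arrays. On the main probe sets of Ager, Hopx and Emp2 both floxed arrays read above both wild type arrays, and the other 6 genes overlapped between the groups. The median log2 fold change, floxed minus wild type, was 0.07 over the 10 genes and 1.67e-05 over all genes. The groups did not overlap for 4 of the 10 genes, 3 with the floxed arrays above and 1 below, and they did not overlap for 45.7% of all genes, with the floxed arrays above for 23.5% and below for 22.2%. In the separate fit over 31526 probe sets, 0 of the 19 passed, against 0.552% of all (0.298% higher and 0.254% lower), and 2 had an unadjusted p under 0.05, against 10.8%. The groups did not overlap for 8 of the 19, 5 with the floxed arrays above and 3 below, against 42.5% of all probe sets, 18.4% above and 24.0% below. The 95% interval of the log2 fold change lay within a 2-fold change in either direction for all 10 genes, as it did for 12164 of the 12735, and for 18 of the 19 probe sets in their own fit, where that of Pdpn reached -1.04.

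**Figure D1:**
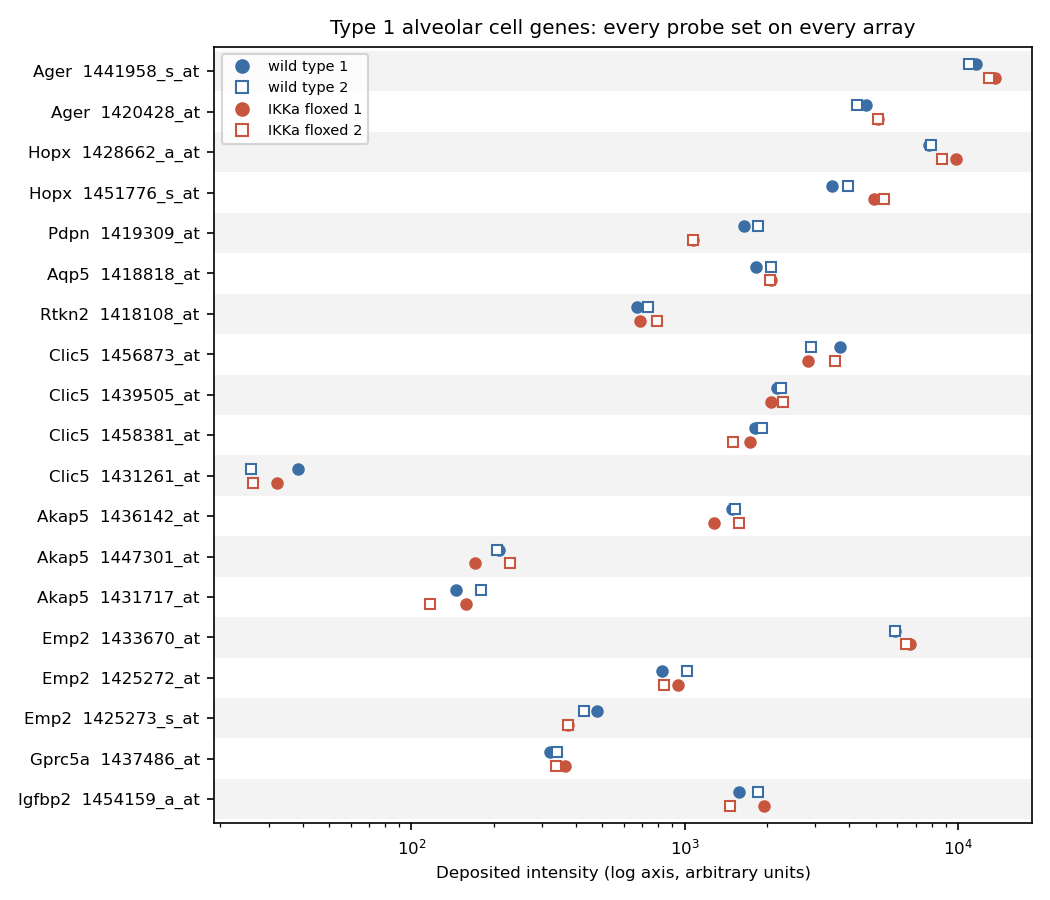
Deposited intensity (x, log axis, arbitrary units) of each of the 19 probe sets of the type 1 alveolar cell genes (y) on each array, with 2 wild type arrays in blue and 2 IKKa floxed arrays in red. Pdpn stands at 1642 and 1859 in wild type lungs against 1072 and 1075 in floxed lungs, whereas most other probe sets show interleaved or adjoining points.

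Pdpn encodes podoplanin, a mucin-like membrane glycoprotein of the type 1 cell's apical surface that binds the platelet receptor CLEC-2 and links to the cytoskeleton through ezrin and moesin. Its single probe set read 1642 and 1859 in the wild type lungs and 1075 and 1072 in the floxed lungs. Both floxed arrays lay below both wild type arrays, and they differed from each other by far less than the wild type arrays did. The means were 1750 ± 154 and 1073 ± 1.88 (SD, n = 2 each), a difference of -38.7%. On the log2(intensity + 16) scale this was -0.69 ± 0.13 SE, with a 95% interval from -0.99 to -0.40 (limma adjusted p = 0.0518 over all genes, rank 237 of 12735 by p). In the fit over probe sets its adjusted p was 0.154. The call thus depended on the setting. The log2 fold change was below 0 in all 12 fits over genes, from -0.78 to -0.61. With 1 probe set and both floxed arrays below both wild type arrays, most of these fits could not have turned its sign. Pdpn passed in 4 of them. It passed with quantile normalization (limma adjusted p = 0.0487), a pseudocount of 64 (0.00606) and an intensity trend with a robust prior (0.00317). It also passed with the mean of all probe sets per gene (0.0409), where only the other genes' values change. Whichever array was left out it missed the threshold, with adjusted p from 0.0907 to 0.261. Of 847 genes with a mean intensity from 1000 to 2000, 5, Pdpn itself included, were as low as or lower than Pdpn in log2 fold change, and 4 passed as lower.

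**Figure D2:**
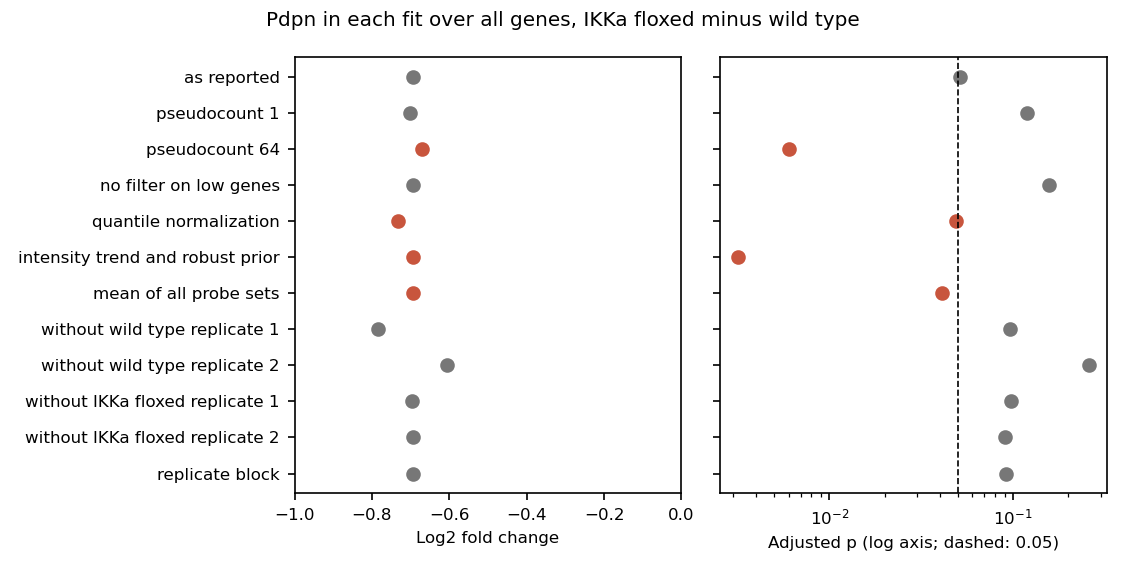
Pdpn in each of the 12 fits over all genes (y): the log2 fold change, floxed minus wild type, on the left and the adjusted p (log axis, dashed line at 0.05) on the right, with red points for fits in which it passed. The difference stays between -0.78 and -0.61, while the adjusted p runs from 0.00317 to 0.261.

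Genes of the other cells that make podoplanin were read on the same arrays, and their part in the Pdpn difference was not tested. All 8 mesothelial genes overlapped between the groups, with a median log2 fold change of -0.07 and none past the test. The summed intensity of these 8 was 2038 and 3173 on the wild type arrays, against 1786 and 3462 on the floxed arrays, so the arrays of each group stood further apart than the group means. The 6 measured lymphatic endothelial genes summed to 3282 and 3431 against 3352 and 3881, and the median of the 5 tested was 0.11. Among them, the receptor gene Lyve1 read 2551 and 2648 in wild type lungs against 2587 and 3183 in floxed lungs. Mmrn1 and Reln, 2 other lymphatic genes, had both floxed arrays below both wild type arrays, with log2 fold changes of -0.49 and -0.42 (limma adjusted p = 0.155 and 0.188). Thy1, which T cells also express, was the 1 lymphatic list gene that passed, as higher (0.84 ± 0.14 SE, limma adjusted p = 0.0462). Thy1 lost that call without wild type array 1 (adjusted p = 0.0501), wild type array 2 (0.182) or floxed array 1 (0.0994), with a pseudocount of 1 (0.102) and with no filter (0.156). Of the lung fibroblast genes, Dcn, which encodes the matrix proteoglycan decorin, fell from a mean of 3088 to 1156, with SDs of 196 and 19.7 over 2 arrays each (-1.40 ± 0.12 SE on the log2 scale, limma adjusted p = 0.00360). With the mean of all its probe sets Dcn did not pass (-0.70, adjusted p = 0.109). Mfap4, a microfibril protein, rose from 105 to 372, with SDs of 9.28 and 95.7 (1.66 ± 0.18 SE, adjusted p = 0.00922, and 0.0581 with no filter on low genes). The median of the 10 fibroblast genes was 0.06. Of podoplanin's partners, Clec1b, the CLEC-2 gene, read 163 and 195 against 179 and 152, Ezr 1776 and 1698 against 1226 and 1575, and Msn 4730 and 5005 against 5023 and 5820. None of the 6 tested partner genes passed (median 0.01).

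Ager encodes RAGE, a receptor of the immunoglobulin superfamily that binds S100 proteins and HMGB1 and is very abundant at the basal face of type 1 cells. Its brightest probe set is of the s_at type, whose probes can match transcripts of more than 1 gene, and read 11626 and 10995 in wild type lungs against 13638 and 12946 in floxed lungs. Its other probe set read 4601 and 4284 against 5105 and 5114. On both probe sets the floxed arrays lay above the wild type arrays. The log2 fold changes were 0.23 ± 0.12 SE at the gene level (95% interval -0.05 to 0.52, limma adjusted p = 0.451) and 0.20 for the second probe set (adjusted p = 0.648 over probe sets). Genes of RAGE ligands and adaptors did not pass either, 0 of 7 tested, with a median of -0.31. Among them S100a6 read 3019 and 3226 against 2831 and 3507, and S100a4 640 and 600 against 974 and 721.

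Hopx encodes a small homeodomain protein that does not bind DNA itself and acts as a transcriptional cofactor, and it marks type 1 cells and their precursors. The brighter probe set read 7817 and 7948 in wild type lungs against 9800 and 8722 in floxed lungs, a log2 fold change of 0.23 ± 0.12 SE (95% interval -0.07 to 0.53, adjusted p = 0.477). The dimmer probe set, of the s_at type, read 3452 and 3953 against 4930 and 5371. It had the largest positive difference of the 19 probe sets, 0.48 ± 0.15 SE (95% interval 0.12 to 0.84, unadjusted p = 0.0169, adjusted p = 0.342 in limma over probe sets). Both probe sets separated the groups with the floxed arrays above. Hopx is also made by heart muscle. All 10 heart muscle genes had both floxed arrays below both wild type arrays, against 22.2% of all genes. Of them, 8 passed as lower, against 0.730% of all genes (median -3.06). Some heart muscle genes, such as Sln, read below the filter on both floxed arrays and entered the test through the wild type arrays. Their part in the Hopx values was not tested.

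Emp2 encodes a tetraspan membrane protein of the PMP22 family that takes part in integrin and caveolin trafficking. Its probe sets disagreed. The brightest read 5896 and 5860 in wild type lungs against 6671 and 6432 in floxed lungs, with a log2 fold change of 0.16 ± 0.12 SE (adjusted p = 0.610) and the floxed arrays above. The second read 826 and 1018 against 943 and 842, and these overlapped. The third, of the s_at type, read 477 and 429 against 373 and 375, a log2 fold change of -0.26 with the floxed arrays below (adjusted p = 0.566 over probe sets). The mean of the 3 probe sets gave -0.05, so no direction can be given for Emp2. In its family, Emp1 had a log2 fold change of -0.17, Emp3 of 0.28 and Pmp22 of 0.09, and none of the 5 genes tested passed.

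**Figure D3:**
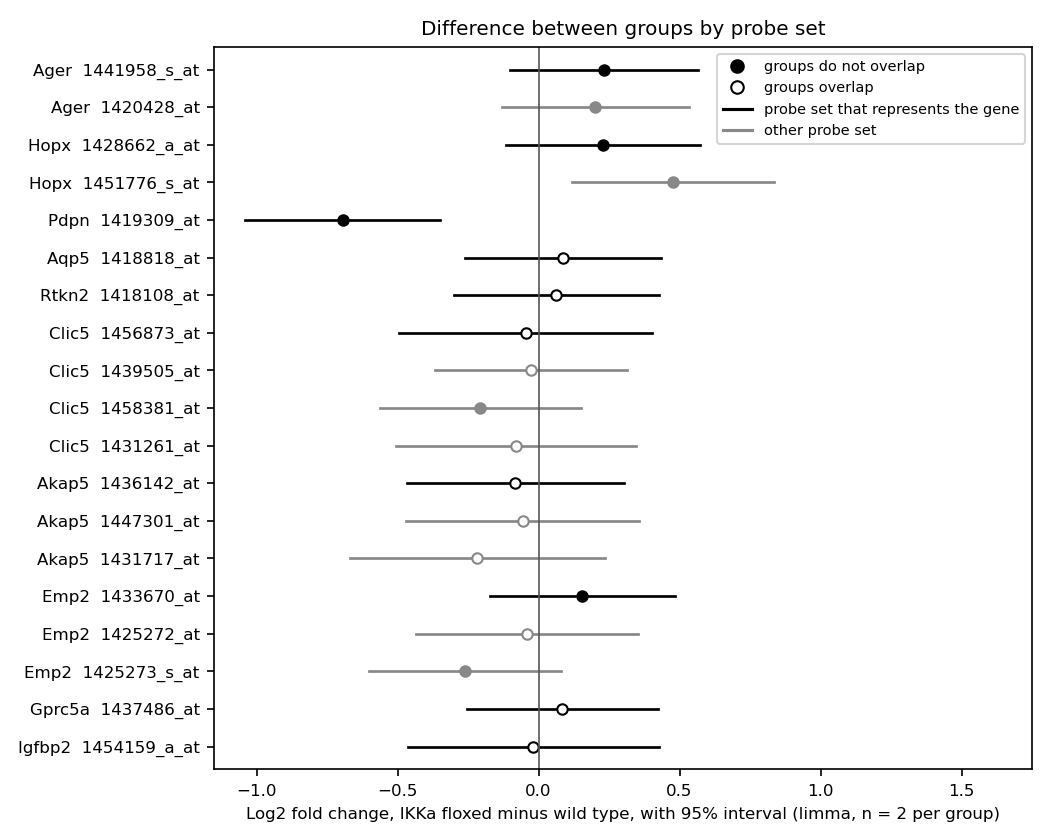
Log2 fold change, floxed minus wild type, with its 95% interval (x; limma over all probe sets, n = 2 per group) for each of the 19 probe sets (y); black marks the probe set that represents the gene, and filled points mark groups that do not overlap. Of the 19 intervals, those of Pdpn and of the dimmer Hopx probe set lie clear of 0, and Emp2 has filled points on both sides.

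Clic5, Aqp5 and Igfbp2 code for proteins that deal with ions, water and growth factors. Clic5, a chloride intracellular channel protein tied to ezrin and the cortical cytoskeleton, had 4 probe sets. Its brightest read 3689 and 2906 in wild type lungs against 2837 and 3544 in floxed lungs, so the spread within each group exceeded the difference of -0.05 ± 0.17 SE (adjusted p = 0.939). All 4 probe sets lay below 0, from -0.21 to -0.03. One of them, at 1806 and 1917 against 1727 and 1501, had the floxed arrays below, and the dimmest stayed between 26.0 and 38.4 on every array. In the same family Clic4 read 4431 and 4842 against 5894 and 5478 (log2 fold change 0.29, adjusted p = 0.351), and none of 5 CLIC genes passed. Aqp5, the water channel of the type 1 cell's apical membrane, read 1819 and 2064 in wild type lungs against 2071 and 2044 in floxed lungs. The lower wild type array stood apart and the other three readings were close together, with a log2 fold change of 0.09 ± 0.13 SE (95% interval -0.21 to 0.39, adjusted p = 0.815). None of the 8 genes tested for aquaporins, the epithelial sodium channel and associated ion transport passed. Aqp4 had the largest difference there, at 116 and 163 against 80.6 and 84.4 (-0.64 ± 0.17 SE, adjusted p = 0.145). Igfbp2, a secreted binding protein of insulin-like growth factors that marks mature type 1 cells, read 1586 and 1854 in wild type lungs against 1952 and 1469 in floxed lungs. The highest and the lowest reading were both from floxed lungs, and the group difference was -0.02 ± 0.17 SE (95% interval -0.42 to 0.39, adjusted p = 0.980). Of 10 genes tested for IGF binding proteins and the IGF axis, 9 lay below 0 and none passed (median -0.15). Over all genes, 6367 of 12735 lay below 0.

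Rtkn2, Akap5 and Gprc5a code for signalling proteins. Rtkn2 read 669 and 737 in wild type lungs against 683 and 789 in floxed lungs, which overlapped (log2 fold change 0.06 ± 0.13 SE, 95% interval -0.25 to 0.38, adjusted p = 0.881). Rtkn, its relative, read 87.7 and 76.9 against 88.5 and 78.8. Akap5, a scaffold that anchors protein kinase A and calcineurin at the membrane, had 3 probe sets that all lay below 0, from -0.22 to -0.06, and all overlapped. Its brightest read 1484 and 1533 in wild type lungs against 1279 and 1585 in floxed lungs (-0.08 ± 0.14 SE, adjusted p = 0.852). The floxed arrays were split on all 3 probe sets, with the second array above the first on 2 of them (by 0.31 and 0.38 on the log2 scale) and below it on the third (-0.39). Of 15 genes of the AKAP family and protein kinase A, none passed (median 0.03). Gprc5a, an orphan receptor induced by retinoic acid, read 321 and 340 against 365 and 338, which also overlapped (0.08 ± 0.12 SE, 95% interval -0.20 to 0.37, adjusted p = 0.809), and Gprc5b read 169 and 132 against 131 and 180.

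The higher readings of Ager, Hopx and Emp2 were shared by other bright genes. Among 132 genes with a mean intensity of 5000 or more, the class that holds these 3 genes, the median log2 fold change was 0.17, and 72.0% had both floxed arrays above both wild type arrays, a share that was 23.5% over all genes tested. The median was 0.09 from 2000 to 5000, 0.02 from 1000 to 2000 and -0.02 below 100. After quantile normalization, which gives every array the same distribution, the median of the brightest class was -0.02. The log2 fold changes then became -0.02 for Ager, -0.00333 for Hopx and -0.00969 for Emp2, and the median of the 10 genes -0.01. All 3 values were thus close to 0 under that scaling, as was the median of their class, so that fit does not set them apart from other bright genes. The positive values with the deposited scaling do not carry over to it. The dimmer Hopx probe set stayed above 0 at 0.32 (limma adjusted p = 0.555 over probe sets), and the second Ager probe set at 0.05. Pdpn went from -0.69 to -0.73, and Gprc5a, whose groups overlapped as deposited, from 0.08 to 0.10.

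**Figure D4:**
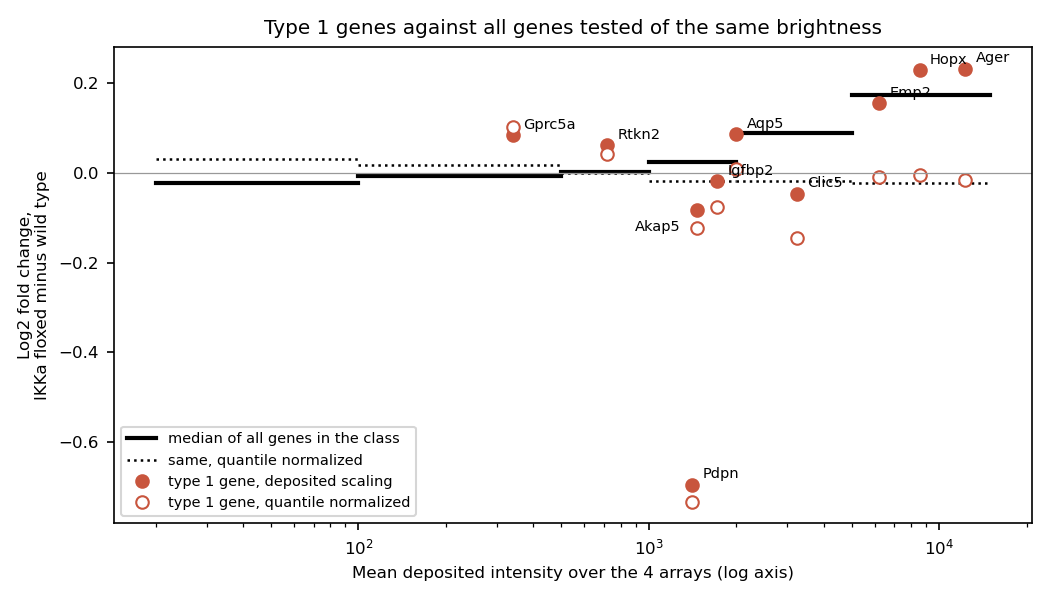
Log2 fold change, floxed minus wild type (y), against mean intensity over the 4 arrays (x, log axis) for the 10 genes, with deposited scaling (filled red) and after quantile normalization (open red); black lines give the median of all genes tested in each of 6 intensity classes, solid as deposited and dotted after normalization. Ager, Hopx and Emp2 sit near the solid line of 0.17 and, once normalized, near 0, whereas Pdpn stays near -0.7.

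Further type 1 genes were also read. Of 25 listed, 24 were tested and none passed. The groups did not overlap for 14 of the 24, 10 with the floxed arrays above and 4 below, against 45.7% of all genes. Their median log2 fold change was 0.04, which became -0.09 after quantile normalization, and the summed intensity of the 24 was 70233 and 72542 in wild type lungs against 74542 and 77262 in floxed lungs. The 3 brightest, Cav1 for caveolin, Sec14l3 for a lipid transfer protein and Cav2, had log2 fold changes of 0.12, 0.12 and -0.07. The largest difference was that of Cldn18, the tight junction claudin of the alveolus, at 2414 and 2367 in wild type lungs against 3033 and 3141 in floxed lungs (0.37 ± 0.12 SE, limma adjusted p = 0.221). Cldn18 was singled out after its values were seen. None of 13 basement membrane genes passed (median 0.02), among them Col4a1, which read 1596 and 1631 against 1560 and 1719.

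Regulators of alveolar fate were not called either. Of 17 tested, 12 lay below 0, against 6367 of all 12735 genes, and none passed (median -0.09). Wwtr1, which encodes TAZ, read 1695 and 1798 against 1558 and 1641, and Yap1 944 and 1013 against 1179 and 1042. The probe set of Nkx2-1 read 18.6 to 32.1 on the 4 arrays, close to the filter at 20.4. None of 10 YAP and TAZ target genes passed, with 4 above 0 and 6 below (median -0.05). Ccn1 came nearest, at 477 and 419 against 684 and 846 (0.75 ± 0.15 SE, adjusted p = 0.0713), and Ccn2 read 2484 and 2271 against 2929 and 3234. Among 9 genes of the transitional state between type 2 and type 1 cells, the keratin gene Krt8 read 1943 and 1783 against 1875 and 1931. Cdkn1a encodes the cell cycle inhibitor p21 and is made by many cell types. It was the 1 that passed, as higher, at 218 and 218 against 700.3 and 524 (1.41 ± 0.16 SE, limma adjusted p = 0.00959, and 0.0581 with no filter on low genes).

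Other lung cell types framed these values. Type 2 genes had a median of 0.10 over 13 tested, with none past the test. Of these 13, 11 lay above 0 and 2 below, against 6368 of all 12735 genes above 0. That share was 72.9% for genes with a mean intensity from 2000 to 5000 and 89.4% from 5000 upwards. Sftpc, the surfactant protein C gene, had the largest difference, at 9204 and 8743 against 13619 and 10831 (0.44 ± 0.15 SE, limma adjusted p = 0.246). Sftpa1, the brightest of the list, had a log2 fold change of 0.10. The median of this list also fell below 0 (-0.03) after quantile normalization. None of 10 pan-epithelial genes passed (median -0.07), and none of 13 capillary endothelial genes (median 0.00). Ciliated cell genes had a median of -0.35 with 0 of 7 past the test. Leukocyte genes had a median of 0.52 with 0 of 7 past the test. All 7 had both floxed arrays above both wild type arrays, against 23.5% of all genes. In contrast, 7 of 10 airway secretory and gland genes and 8 of 10 heart muscle genes passed as lower (medians -2.23 and -3.06), against 0.730% of all genes. Some of these genes read below the filter of 20.4 on both floxed arrays, such as Sln (11.2 and 13.6) and Reg3g (2.56 and 3.90). Such genes entered the test through the wild type arrays alone, where they are high. The 3 brightest airway genes, Scgb1a1, Cyp2f2 and Scgb3a2, did not pass, with log2 fold changes of 0.30, 0.12 and -0.14. The summed intensity of the 10 airway genes was 40028 and 41700 in wild type lungs against 42130 and 34751 in floxed lungs. The airway count was 2 with a pseudocount of 1 and 3 with no filter on low genes. Of the 10 type 1 genes, none had a log2 fold change beyond 1 in either direction and 1, Pdpn, went beyond 0.5, as did 6.44% of all genes. No difference between these lists was tested.

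**Figure D5:**
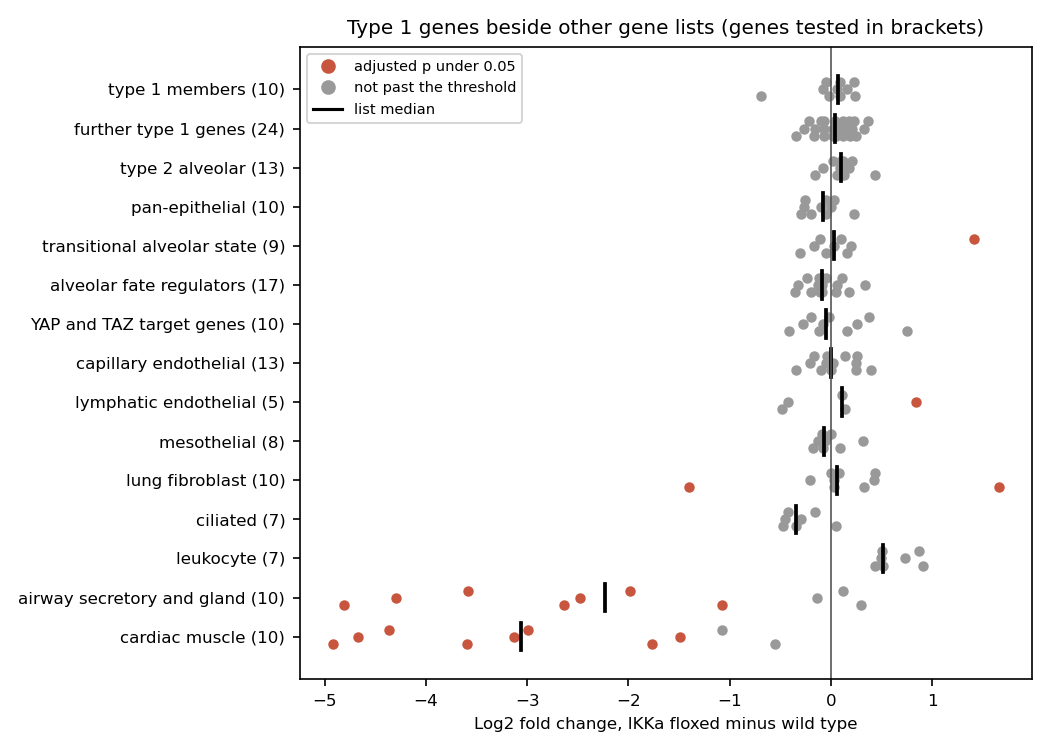
Log2 fold change, floxed minus wild type (x), of each gene tested in 15 gene lists (y, number tested in brackets); red points passed at an adjusted p under 0.05 over all genes, and black bars are list medians. The type 1 lists sit close to 0 with medians of 0.07 and 0.04 and no red point, whereas heart muscle and airway secretory genes reach below -4.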

How the data were processed

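Total RNA of mouse lung was measured on 4 Affymetrix arrays, and groups were read from the sample titles. The deposited table holds a linear intensity per probe set. Affymetrix Expression Console is the tool listed in the submitters' processing notes. Neither its version nor the algorithm run is given in the sources used here. All arrays shared a mean of 150.001 once 2% was trimmed at each end, so the deposited intensities had already been scaled. The number of arrays limits the precision.

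Names came from the platform annotation. Leaving out 64 array controls, it gives a single symbol for 34945 probe sets (1 each), several for 932 and no entry for 9160. Symbols were checked against RefSeq (GRCm38.p6) by Entrez number, with 34741 matches and 0 changes. Where a gene had several probe sets, the one with the largest mean of log2(intensity + 16) stood for it. Features below the 30th percentile of that mean were left out, an intensity of 20.4 for genes and 12.3 for probe sets. Array medians differed by at most 0.0649 on the log2 scale, and the deposited scaling was kept. The 2 genotypes were tested against each other in R 4.3.3 with limma 3.58.1 (lmFit, then eBayes; two-sided, no covariates) over 12735 genes and, separately, 31526 probe sets, with Benjamini-Hochberg adjustment. The design had 2 residual degrees of freedom, to which eBayes added 4.78. An exact permutation test of 2 against 2 cannot go below p = 0.333, so none is given.

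The genes followed and the lists beside them were chosen with earlier results of these data known, and the lists are described by counts and medians only. Every gene followed was named. From each list, names could be taken from the genes that passed and otherwise from the 3 brightest, and only some of these are named. Families of the genes followed could be named in full. Other names, namely Lyve1, Mmrn1, Reln, Clec1b, Cldn18, Nkx2-1, Ccn1 and Krt8, were chosen after their values were seen. Tested on simulated data for this comparison (12735 genes, 20 runs), the procedure found 5.82% of planted 1.5-fold changes, 73.7% of planted 2-fold changes and 98.8% of planted 4-fold changes, and 4.51% of its calls were false. The alternatives tried were another pseudocount, no filter, quantile normalization, an intensity trend with a robust prior, the mean of all probe sets, each array left out and the replicate number as a block.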

Additional observations from a re-analysis of the deposited data

How the results depend on the processing

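The count of genes called, 220, was 103 with a pseudocount of 1, 360 with a pseudocount of 64, 69 with no filter on low genes, 384 with an intensity trend and robust prior, and 146 to 248 with an array left out, lowest without wild type replicate 2. The count of type 1 genes called went from 0 to 1, Pdpn as lower, with a pseudocount of 64, quantile normalization, an intensity trend and robust prior, and the mean of all probe sets; it was 0 with each array left out. The median of the 10 genes ran from 0.02 to 0.13 with an array left out and was -0.01 after quantile normalization. The replicate number as a block gave 188 genes called and 0 of the 10. Over all genes tested, the deviations of same-numbered arrays were not correlated (r = -0.000334). Mesothelial genes did deviate together, summing to 2038 (wild type) and 1786 (floxed) on arrays numbered 1, against 3173 and 3462 on arrays numbered 2. With 2 arrays a group, changes of 1.5-fold were mostly missed in simulation, so a miss does not show that a type 1 gene did not differ.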
